A study of Mus musculus with 8 samples.

Results

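Metallothioneins and glutathione redox genes were taken as 10 genes, Mt1, Mt2, Gstm1, Gstm2, Glrx, Gclm, Hmox1, Nqo1, Txnrd1 and Slc7a11, of 18193 genes named on the array. They were read by all 19 of their probe sets, of 45037 in the table. The set was put together because Mt2 was higher and Gstm2 and Glrx were lower after Cre in 1 of the lines, so every value of that contrast is given for the members as a description, without a test. RNA came from 2 T cell leukemia lines with 2 arrays in each of 4 groups. All cells were of the FVB/NJ strain and lacked E2a, which encodes the E proteins E12 and E47, transcription factors of early lymphocyte development. In the E2a-/-Lef1F/F line (here the Lef1F/F line) Cre can cut the DNA binding domain out of both Lef1 alleles, which carry loxP sites. It was infected with MigR1-Cre, a retrovirus that produces Cre and GFP, or with MigR1, which produces GFP alone. The E2a-/- line, whose Lef1 has no loxP sites, was infected with the same MigR1-Cre or MigR1. GFP+ cells were sorted 72 h after infection in every group, and all cultures contained mercaptoethanol, a thiol that helps lymphoid cells to take up cystine. There was 1 line per genotype, so line and genotype cannot be told apart. The labels do not say that replicates came from separate cultures, and p-values therefore measure only the spread between these arrays, which may be technical.

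Glutathione is a small thiol that cells make from glutamate, cysteine and glycine and use to reduce peroxides, to detoxify reactive compounds and to keep protein cysteines reduced. Metallothioneins are short, cysteine-rich proteins that bind zinc and copper, and MTF1 switches on their genes through metal response elements when zinc rises. Many glutathione and thioredoxin genes are switched on by NRF2 through antioxidant response elements, while KEAP1 keeps NRF2 low and BACH1 occupies the same elements as a repressor. Dividing T cells need cystine or cysteine from outside to keep up their glutathione.

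The promoters of the genes that chose the set are shown with that of Mt1, because Mt1 lies on chromosome 8 only 5316 bp beyond the end of Mt2 and the 2 genes are usually induced together. Of the 10 members, 9 had a RefSeq promoter window (assembly GRCm38.p6), 13 windows in all, each with 250 bases before and 50 after a start site. Hmox1 had none. In that assembly Mt2 spans chr8:94172618-94173567, Mt1 chr8:94178883-94180327, Gstm2 chr3:107981702-107986420, Gstm1 chr3:108012250-108017973 and Glrx chr13:75839885-75850151. Gclm and Slc7a11 also lie on chromosome 3, Hmox1 and Nqo1 on chromosome 8 and Txnrd1 on chromosome 10. The 250 upstream bases are given 5′ to 3′ with each metal response element core (TGCACNC or TGCGCNC, on either strand) in capitals. The reference strain is not FVB/NJ.
Mt2 upstream bases, chr8:94172368-94172617, plus strand: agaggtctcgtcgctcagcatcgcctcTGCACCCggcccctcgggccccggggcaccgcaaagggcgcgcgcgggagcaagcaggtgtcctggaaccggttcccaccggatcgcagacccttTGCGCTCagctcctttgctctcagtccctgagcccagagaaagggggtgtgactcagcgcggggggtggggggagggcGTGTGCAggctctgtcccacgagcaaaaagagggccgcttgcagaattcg
Mt1 upstream bases, chr8:94178839-94179088, plus strand: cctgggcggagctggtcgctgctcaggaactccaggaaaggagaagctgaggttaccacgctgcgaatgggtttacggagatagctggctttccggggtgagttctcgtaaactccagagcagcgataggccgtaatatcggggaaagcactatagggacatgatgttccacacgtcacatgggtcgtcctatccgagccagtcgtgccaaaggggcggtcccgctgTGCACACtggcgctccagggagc
Gstm2 upstream bases, chr3:107986421-107986670, minus strand: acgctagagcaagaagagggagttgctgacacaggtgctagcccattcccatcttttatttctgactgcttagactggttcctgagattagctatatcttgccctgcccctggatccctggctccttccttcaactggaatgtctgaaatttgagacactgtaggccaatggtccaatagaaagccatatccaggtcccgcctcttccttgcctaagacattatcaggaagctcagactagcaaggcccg
Glrx upstream bases, chr13:75839635-75839884, plus strand: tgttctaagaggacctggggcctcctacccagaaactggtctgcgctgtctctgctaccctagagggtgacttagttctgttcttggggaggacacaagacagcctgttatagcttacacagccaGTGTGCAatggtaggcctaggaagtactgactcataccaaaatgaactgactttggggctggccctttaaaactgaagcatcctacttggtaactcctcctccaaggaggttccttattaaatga
The Mt2 window held 4 such cores, 3 of them upstream, and that of Mt1 held 3, 1 of them upstream, at 23 bases before the start. The start site of the Mt1 window lies inside the gene span given above. Its upstream bases reach 94179088, while the gene starts at 94178883. Few bases before the Mt1 gene start were therefore searched, and the counts of Mt1 and Mt2 do not compare like stretches. At least 1 core was present in 25.7% of all 32851 windows, 3 or more in 1.97% and 4 or more in 0.517%. Both Glrx windows and both Gstm1 windows had 1 core and Gclm had 3, while Gstm2, Nqo1, Txnrd1 and Slc7a11 had 0. The antioxidant response element core (TGACNNNGC, either strand), found in 12.4% of all windows, occurred once each in Mt2 (79 bases before the start), in Gclm, where it overlaps a metal response element core, and in 1 of the 3 Txnrd1 windows. The TCF/LEF core was searched as CTTTGAA, as CTTTGAT, as CTTTGTA and as CTTTGTT on either strand. It was found in 16.9% of all windows and occurred in Slc7a11 and in the same Txnrd1 window and in no window of Mt2, Gstm2 or Glrx. These matches describe letters in a window and not sites of binding.

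The arrays were checked before the members. Median intensity lay between 88.9 and 91 units in the 8 arrays, on the linear RMA scale that is used for every level here. The 2 Lef1 probe sets had 236 to 237 and 1678 to 1903 units in Lef1F/F MigR1-Cre arrays, against 1262 to 1485 and 6126 to 6918 in Lef1F/F MigR1 arrays. In the E2a-/- line they had 605 to 628 and 3008 to 3416 after MigR1-Cre and 610 to 753 and 3288 to 3337 after MigR1. Over all probe sets, arrays of the Lef1F/F line correlated better across vectors (r = 0.9975 for array 1 with array 1 and for array 2 with array 2) than within a vector (r = 0.9943 and 0.9945), so differences within these pairs are given too. None of the 8 measured T lineage markers was dim, that is, under the table median of 89.8 units in every group mean, while 7 of 10 myeloid, 5 of 6 B lineage, 2 of 4 erythroid and 5 of 10 stromal, epithelial and endothelial markers were.

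Mt2 was the only metallothionein with an intensity clearly above that of most probe sets. It stood at 1024 and 1052 units in the Lef1F/F MigR1-Cre arrays and at 599 and 614 units in the Lef1F/F MigR1 arrays. It stood at 186 and 175 units after MigR1-Cre and at 169 and 163 units after MigR1 in the E2a-/- line. All 4 arrays of the Lef1F/F line were above all 4 of the E2a-/- line, and within the Lef1F/F line the MigR1-Cre arrays were above the MigR1 arrays. The log2 difference of MigR1-Cre and MigR1 in the Lef1F/F line was 0.77 ± 0.06 (SE), a ratio of 1.71, and 0.77 and 0.78 in the array pairs.

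Both Mt1 probe sets were dim. The brighter one had 84.9 and 88.4 units in Lef1F/F MigR1-Cre arrays and 89.7 and 85.0 units in Lef1F/F MigR1 arrays. E2a-/- cells had 87.8 and 89.4 units after MigR1-Cre and 88.5 and 80.9 units after MigR1. The groups overlapped throughout, and the other Mt1 probe set lay between 52.5 and 54.7 units in all 8 arrays. At such intensities a difference may be understated, so a small change of Mt1 was not detectable on these arrays. Mt3 and Mt4, metallothioneins known mainly from brain and from squamous epithelium, stood at 93.0 to 110 and at 47.7 to 54.0 units.

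**Figure D1:**
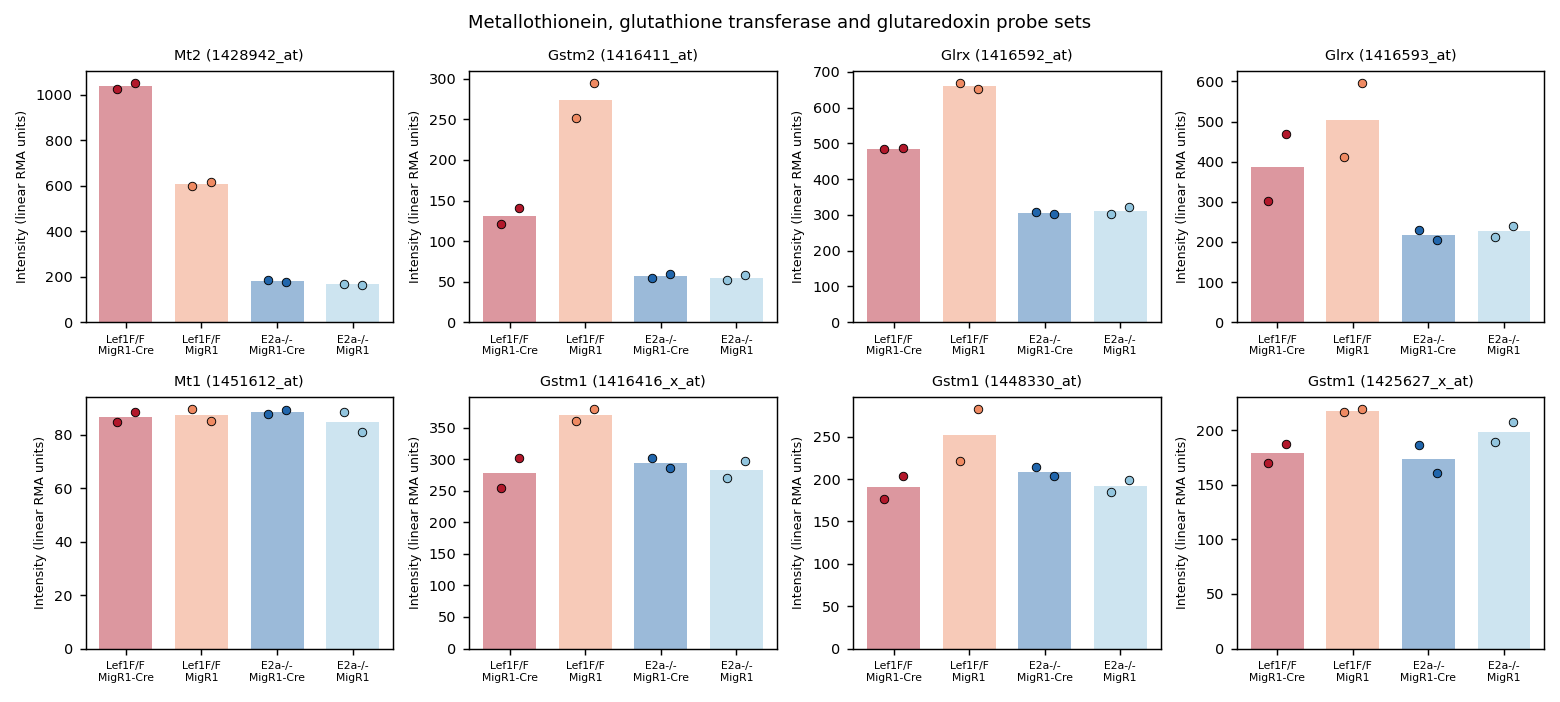
Intensity in linear RMA units (vertical axes from 0) of 8 probe sets of Mt2, Gstm2, Glrx, Mt1 and Gstm1 in the 4 groups, with 1 point per array and a bar at the mean of the 2. The dimmer Mt1 probe set is not shown, nor is the dimmest Gstm1 probe set, whose arrays overlapped between the vectors in both lines. Mt2 was highest in the Lef1F/F MigR1-Cre arrays (1024 and 1052 units), while Gstm2 and both Glrx probe sets had their highest group mean in the Lef1F/F MigR1 arrays. The Mt1 probe set shown lay at 80.9 to 89.7 units in all arrays.

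Gstm2 encodes a mu class glutathione transferase, which joins glutathione to electrophiles. Its probe set had 121 and 140 units in Lef1F/F MigR1-Cre arrays and 252 and 295 units in Lef1F/F MigR1 arrays. The E2a-/- arrays had 54.1 and 59.2 units after MigR1-Cre and 52.4 and 57.7 units after MigR1. The log2 difference of the vectors in the Lef1F/F line was -1.07 ± 0.11 (SE), or 2.1-fold lower with MigR1-Cre, and it was -1.06 and -1.08 in the array pairs. The MigR1-Cre arrays of the Lef1F/F line thus lay between its MigR1 arrays and those of the E2a-/- line, without overlap on either side. All 4 E2a-/- arrays were under the table median of 89.8 units, where a further fall could hardly be seen.

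Gstm1, a mu class transferase whose gene lies 25830 bp from Gstm2 on chromosome 3, was read by 4 probe sets. Sequences of mu class genes are alike, and 2 of the 4 carry the suffix of probe sets that may also bind related transcripts, so the signals may not be fully separate. The brightest had 254 and 302 units in Lef1F/F MigR1-Cre arrays and 361 and 380 units in Lef1F/F MigR1 arrays. It had 302 and 286 units after MigR1-Cre and 271 and 297 units after MigR1 in the E2a-/- line. Across the Lef1F/F vectors 3 of the 4 did not overlap, with log2 differences of -0.42, -0.40 and -0.29 (SE 0.09 to 0.12), and the fourth gave -0.06. The difference of -0.40 was -0.22 without Lef1F/F MigR1 array 2 and -0.57 without Lef1F/F MigR1 array 1. For these 3 the Lef1F/F MigR1 group had the highest mean of the 4 groups and its arrays overlapped none of the others. The Lef1F/F MigR1-Cre arrays overlapped the arrays of the E2a-/- line as a whole at all 3.

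Glrx encodes the cytosolic glutaredoxin, which removes glutathione from protein cysteines. Its brighter probe set had 484 and 486 units in Lef1F/F MigR1-Cre arrays and 670 and 653 units in Lef1F/F MigR1 arrays. In the E2a-/- line it had 308 and 302 units after MigR1-Cre and 301 and 323 units after MigR1. No array of any Lef1F/F group overlapped another group, and the log2 difference of the vectors was -0.45 ± 0.06 (SE), with -0.47 and -0.43 in the array pairs. The other Glrx probe set had 302 and 470 units in Lef1F/F MigR1-Cre arrays and 412 and 597 units in Lef1F/F MigR1 arrays, which overlapped. Its difference was -0.40 ± 0.22 (SE), and -0.45 and -0.34 in the array pairs. Array 2 was higher than array 1 with both vectors.

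Of the genes for glutathione supply, Gclm encodes the modifier subunit of glutamate-cysteine ligase, the first enzyme of glutathione synthesis. Its brighter probe set had 866 and 812 units in Lef1F/F MigR1-Cre arrays and 1020 and 935 units in Lef1F/F MigR1 arrays, a log2 difference of -0.22 ± 0.07 (SE) with -0.24 and -0.20 in the array pairs. It lay between 960 and 989 units in the 4 E2a-/- arrays. The other Gclm probe set overlapped between the vectors (-0.16 ± 0.14) and ran from -0.35 to 0.03 on leaving out 1 array. Slc7a11 encodes the cystine carrier of the xc- exchanger. One Slc7a11 probe set had 70.3 and 77.0 units in Lef1F/F MigR1-Cre arrays and 71.1 and 69.0 units in Lef1F/F MigR1 arrays. The other had 46.7 and 48.9 units in Lef1F/F MigR1-Cre arrays and 48.2 and 54.3 units in Lef1F/F MigR1 arrays. Both lay above 100 units in all 4 E2a-/- arrays, at 104 to 134 and 114 to 135 units.

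Hmox1 encodes heme oxygenase, Nqo1 a quinone reductase and Txnrd1 the cytosolic thioredoxin reductase, all known targets of NRF2. Hmox1 had 92.1 and 93.9 units in Lef1F/F MigR1-Cre arrays, within the 98.8 and 84.5 units of the Lef1F/F MigR1 arrays. Nqo1 had 193 and 208 units in Lef1F/F MigR1-Cre arrays and 217 and 221 units in Lef1F/F MigR1 arrays, a log2 difference of -0.13 ± 0.07 (SE). The bright Txnrd1 probe set had 3499 and 3593 units in Lef1F/F MigR1-Cre arrays and 3636 and 3826 units in Lef1F/F MigR1 arrays (-0.07 ± 0.06). The other 2 Txnrd1 probe sets were far dimmer, at 116 to 180 and 63.9 to 72.2 units over all 8 arrays, and gave -0.08 ± 0.21 and 0.00 ± 0.08.

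**Figure D2:**
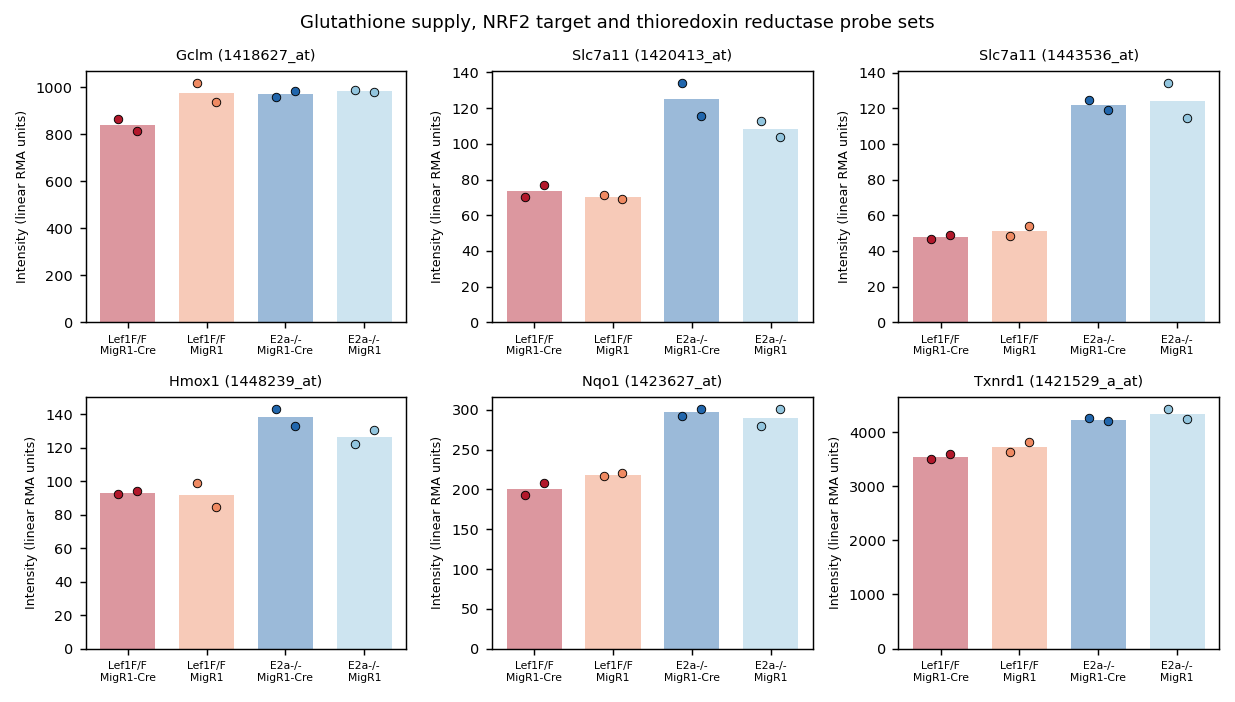
Intensity in linear RMA units (vertical axes from 0) of 6 probe sets of Gclm, Slc7a11, Hmox1, Nqo1 and Txnrd1 in the 4 groups, with 1 point per array and a bar at the mean of the 2. Both Slc7a11 probe sets, Hmox1, Nqo1 and the bright Txnrd1 probe set were lower in all 4 Lef1F/F arrays than in all 4 E2a-/- arrays, with either vector. The dimmer probe sets of Gclm and Txnrd1, whose arrays overlapped between the lines, are not shown.

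Counted over the set, the arrays of the 2 vectors did not overlap in the Lef1F/F line at 10 of 19 member probe sets, 2 higher and 8 lower with MigR1-Cre, beside 29.1% of all probe sets (15.4% higher and 13.7% lower). Because the set was chosen on this contrast, nothing is read from that count. The median log2 difference was -0.10 over the 19 and 0.00 over all probe sets. Among the 7 genes that the choice did not name, differences ran from -0.42 to 0.07 over 15 probe sets. A bulk intensity does not tell fewer cells with a transcript from less of it per cell.

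The E2a-/- line asks whether Cre moves these genes where Lef1 carries no loxP sites. The reason given for the set did not use its arrays, but earlier results of these data were known when the members were chosen. With limma, 0 of 19 member probe sets passed an adjusted p of 0.05 and 0 had an unadjusted p under 0.05, beside 0% and 1.86% of all probe sets. The arrays of the vectors did not overlap at 6 of 19, beside 31.4% of all probe sets. Differences lay between -0.19 and 0.20 on the log2 scale. Mt2 gave 0.12 ± 0.06 (SE, 95% interval -0.02 to 0.26), and its MigR1-Cre arrays were above its MigR1 arrays without overlap. Gstm2 gave 0.04 (-0.20 to 0.29) and Glrx at the brighter probe set -0.03 (-0.17 to 0.11). The other Glrx probe set gave -0.06, with a wide interval of -0.58 to 0.46. For Gstm2 the E2a-/- arrays were too dim for a fall to be seen. The effect in the Lef1F/F line minus that in the E2a-/- line was 0.65 ± 0.09 (SE) for Mt2, -1.11 ± 0.15 for Gstm2, and -0.42 ± 0.08 and -0.34 ± 0.32 for the brighter and the dimmer Glrx probe set. The Gstm1 probe sets gave -0.47, -0.52, -0.09 and -0.06 (SE 0.12 to 0.17), and the third of them was lower with MigR1-Cre without overlap in both lines (-0.29 in the Lef1F/F line and -0.19 in the E2a-/- line). This quantity is given without a test, since it contains the contrast that chose the set. Adjusted p was 1 for all members in the E2a-/- line, and a p that misses the threshold does not show that these genes ignore Cre.

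**Figure D3:**
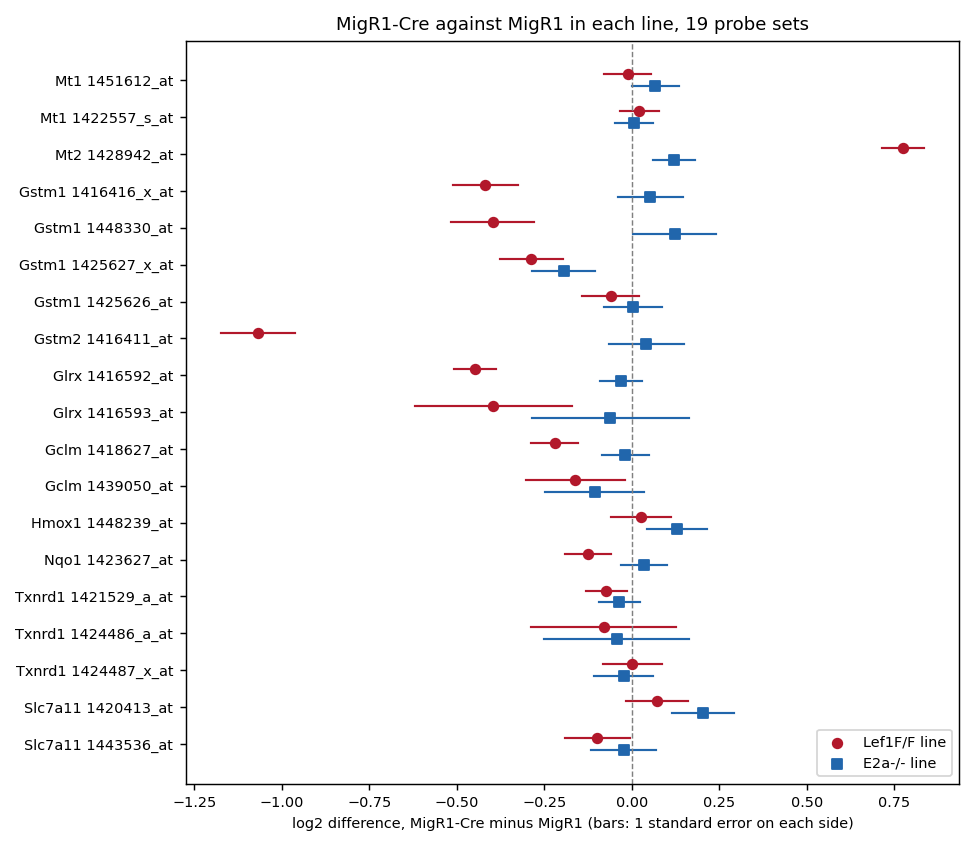
Log2 difference of MigR1-Cre minus MigR1 (horizontal axis) for the 19 member probe sets in the Lef1F/F line (red circles) and the E2a-/- line (blue squares), with bars of 1 standard error on each side. In the Lef1F/F line Mt2 lies at 0.77 and Gstm2 at -1.07, while all differences in the E2a-/- line lie between -0.19 and 0.20.

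The lines were then compared over all 4 arrays of each, averaged over the vectors. Of the 75 probe sets that passed in the Lef1F/F Cre contrast, 53 were higher in the Lef1F/F line (70.7%) and 11 lower, so a choice made on that contrast favours genes that are high in this line. The p-values of Mt2, Gstm2 and Glrx between the lines are therefore not independent of their choice. Mt2, Gstm2 and Glrx were higher in the Lef1F/F line, and Slc7a11, Hmox1, Nqo1 and 1 of 3 Txnrd1 probe sets were lower. With limma, 9 of 19 member probe sets passed, 4 higher and 5 lower, beside 20.5% of all probe sets (9.71% higher and 10.8% lower). The 4 higher were all of Mt2, Gstm2 and Glrx, which chose the set, so nothing is read from their number. Of the 15 probe sets of the other 7 genes, 5 passed, all of them lower. Bright probe sets passed more often, at 35.9% of those above the median intensity, where 8 of 15 member probe sets passed. The 4 of Mt2, Gstm2 and Glrx are among these 8. The arrays of the lines did not overlap at the 9 member probe sets that passed, beside 25% of all probe sets. Mt2 averaged 822 ± 249 units in the Lef1F/F line and 173 ± 9.9 units in the E2a-/- line (SD, n = 4 each), a log2 difference of 2.20 ± 0.04 (SE) with limma adjusted p = 2.68e-08. The ratio was 5.75 in MigR1-Cre arrays and 3.66 in MigR1 arrays. Gstm2 averaged 202 ± 84.9 units in the Lef1F/F line and 55.8 ± 3.1 units in the E2a-/- line (1.76 ± 0.07, adjusted p = 1.92e-06), with ratios of 2.3 in MigR1-Cre arrays and 4.96 in MigR1 arrays. These differences may be understated, because the E2a-/- intensities lie under the table median and were not shown to be above background. The Glrx probe sets gave 0.88 ± 0.04 and 0.97 ± 0.16 (adjusted p = 4e-06 and 0.00344).

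Slc7a11, Hmox1, Nqo1 and the bright probe set of Txnrd1 passed as lower in the Lef1F/F line. A list of other NRF2 regulators and targets had 7 higher and 7 lower. It mixes targets with genes that restrain NRF2, such as Bach1 and Keap1, so this count gives no direction for targets. A part of NRF2 in these differences was not tested. Slc7a11 differed most, at -1.32 ± 0.07 and -0.69 ± 0.06 (SE) for its 2 probe sets (limma adjusted p = 4.75e-06 and 0.000143). The first had a median of 48.5 units in the Lef1F/F line (46.7 to 54.3) and of 122 units in the E2a-/- line (114 to 135). Because the Lef1F/F values are among the dimmest in the table, this difference may be understated. Hmox1 averaged 92.3 ± 5.9 units in the Lef1F/F line and 132 ± 8.7 units in the E2a-/- line (SD, n = 4 each), a log2 difference of -0.52 ± 0.06 (adjusted p = 0.000558). Nqo1 averaged 209.5 ± 12.3 units in the Lef1F/F line and 294 ± 9.8 units in the E2a-/- line (-0.49 ± 0.05, adjusted p = 0.000191). Txnrd1 passed at its bright probe set, with 3638 ± 137 units in the Lef1F/F line and 4286 ± 99.7 units in the E2a-/- line (-0.24 ± 0.04, adjusted p = 0.00506). It gave adjusted p = 0.0563 in MigR1 arrays alone.

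Mt1, Gstm1 and Gclm did not pass at any of their 8 probe sets. Mt1 gave 0.01 at both, with 95% intervals of -0.10 to 0.12 and -0.08 to 0.10, while Mt2 beside it gave 2.20. Both Mt1 probe sets were dim, so a difference may be understated and these intervals do not show equal levels. The 4 Gstm1 probe sets gave 0.06 to 0.15, and the brightest passed in MigR1 arrays alone (0.39, adjusted p = 0.0344), where the Lef1F/F line had 371 ± 13.2 units and the E2a-/- line 284 ± 18.3 units (SD, n = 2 each). The Gclm probe sets gave -0.11 ± 0.05 and 0.19 ± 0.10, on opposite sides of 0, and the dimmer passed once array pairs of the Lef1F/F line entered as a block (adjusted p = 0.00682). Some cell type markers also passed between the lines, beside 20.5% of all probe sets and 35.9% of those above the median intensity. A count of markers near these shares gives no result about a cell type. The part of the markers in the differences of the members was not tested. Of the stromal, epithelial and endothelial list, 2 of 10 were higher and 1 lower, and the summed level was 1222 to 1376 units in Lef1F/F arrays and 4966 to 5224 units in E2a-/- arrays. Most of that came from Col1a2, a collagen chain, at 290 ± 26.7 units in the Lef1F/F line and 4244 ± 107 units in the E2a-/- line. The collagen genes Col1a1 (0.003) and Col3a1 (-0.045) were dim and did not pass, and the 2 higher were Cdh1 (1.21) and Pdgfrb (0.45). Of the T lineage markers, 4 of 8 were higher and 1 lower, and their summed level was 33601 to 40548 units in Lef1F/F arrays and 32255 to 32659 units in E2a-/- arrays. Of 4 erythroid markers 1 was lower (Klf1, -0.20), and none of 10 myeloid and 6 B lineage markers passed.

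**Figure D4:**
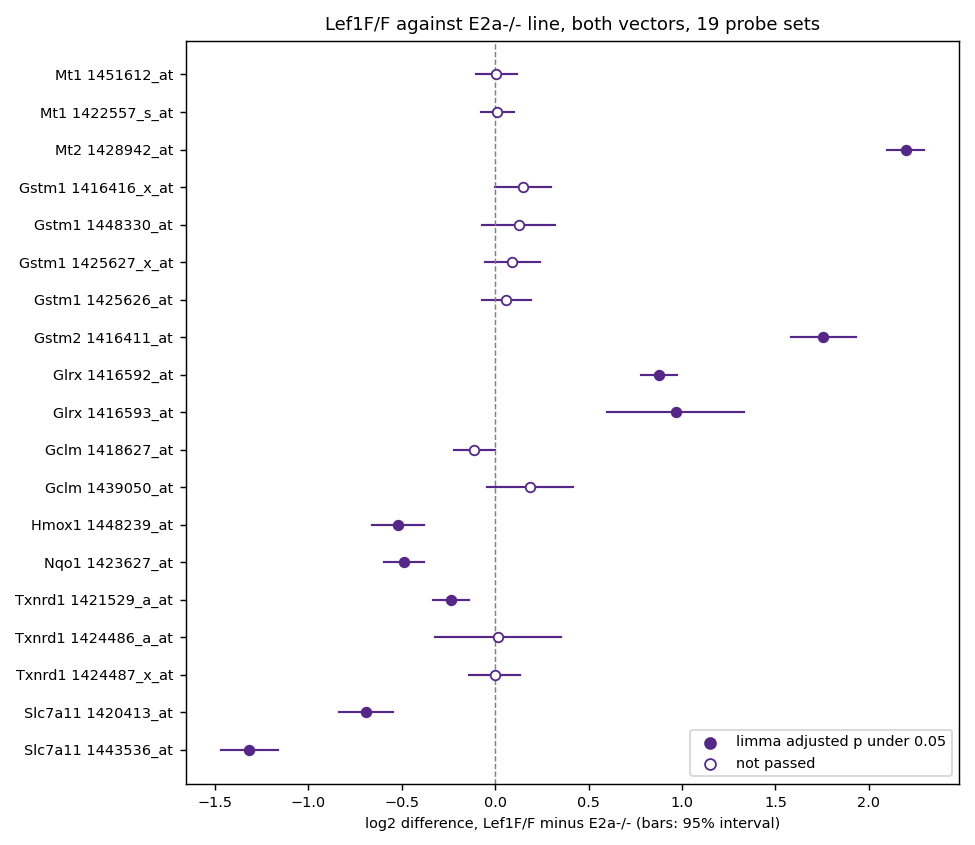
Log2 difference of the Lef1F/F minus the E2a-/- line over both vectors (horizontal axis, 4 arrays per line) for the 19 member probe sets, with bars of the 95% interval and filled points for a limma adjusted p under 0.05. Mt2 (2.20), Gstm2 (1.76) and both Glrx probe sets lie to the right, and Hmox1, Nqo1, Slc7a11 and 1 Txnrd1 probe set to the left.

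Other genes of zinc, glutathione and redox metabolism were read in 6 lists, of which 100 of 108 genes were measured, each at its brightest probe set. After Cre in the Lef1F/F line, limma called 0 of the 100, beside 0.167% of all probe sets (0.04% higher and 0.127% lower). At an unadjusted p under 0.05, 2 were higher and 11 lower, beside 4.66% of all probe sets in either direction. The smallest p-values belonged to Akr1b8, an aldo-keto reductase (-0.31 ± 0.08, adjusted p = 0.517), to Fth1, the ferritin heavy chain (-0.26 ± 0.07, adjusted p = 0.582), to Cth, which makes cysteine from cystathionine (-0.37 ± 0.10, adjusted p = 0.587), to Slc30a7, a zinc carrier of the secretory pathway (-0.21 ± 0.06, adjusted p = 0.642) and to Gstm3, a further mu class transferase (-0.27 ± 0.09, adjusted p = 0.896). In the same contrast Mt3, Ggt5, Gsta4, Txnip, Txn2, Msrb1 and Msrb2, the others with the smallest p of a list, gave 0.17, 0.23, -0.19, 0.15, -0.09, -0.14 and -0.14. In the E2a-/- line limma also called 0 of 100, with 1 at an unadjusted p under 0.05, Osgin1 (-0.15 ± 0.06), a dim probe set.

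Between the lines 37 of the 100 passed, 11 higher and 26 lower in the Lef1F/F line. Beside this stood 20.5% of all probe sets (9.71% higher and 10.8% lower) and 35.9% of those above the median intensity. Some of the list genes were dim, so neither share matches the lists fully. In glutathione synthesis and breakdown 6 of 14 were lower and 0 higher, with a median of -0.23 over the list and of -0.01 over all probe sets. The largest were Chac2, which degrades glutathione (-0.44), Lap3, a leucine aminopeptidase (-0.39), Ggct, which releases 5-oxoproline from gamma-glutamyl dipeptides (-0.32), and the dim Cth (-0.32). Gss, glutathione synthetase, named here for its role, was lower too (-0.31). Of the thioredoxin, glutaredoxin and peroxiredoxin list 3 of 14 were lower and 0 higher, the mitochondrial Prdx3 (-0.49), Glrx2 (-0.43) and Txn2 (-0.42). In the transferase list Gsta4 (-0.59), Gstp1 (-0.39) and Gstz1 (-0.23) were lower and Gsto1, an omega class transferase, was higher (0.53).

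In peroxide and superoxide removal, Msrb2, a mitochondrial methionine sulfoxide reductase (-0.84), and Sod2, the mitochondrial superoxide dismutase (-0.52), were lower, and catalase (Cat, 0.50) and Msra (0.50) higher. The NRF2 list split evenly, with 7 of 23 higher and 7 lower. Cbr1, a carbonyl reductase, was higher (0.92), and so was Bach1, at 2287 ± 143 units in the Lef1F/F line and 1464 ± 30.8 units in the E2a-/- line (SD, n = 4 each; 0.64 ± 0.04, limma adjusted p = 2.9e-05). Pgd, an enzyme of the pentose phosphate pathway that makes NADPH, was lower (-0.79), and so was Nfe2l1, a relative of NRF2 (-0.42). Keap1, named for its role, was lower as well (-0.20). Of the zinc list, Slc39a8, a zinc importer at the cell surface, was higher (0.89), and 5 of 16 were lower, among them the carriers Slc39a14 (-0.38), Slc30a1 (-0.29) and Slc39a7 (-0.29). Slc30a1, a zinc exporter, is like Mt2 a known target of MTF1. Some partners of the members, also named for their role, did not pass, namely Mtf1 (-0.02), Nfe2l2, which encodes NRF2 (0.04), Gclc, the catalytic subunit beside GCLM (0.11), and Slc3a2, the chain that SLC7A11 pairs with (-0.24, adjusted p = 0.0562).

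**Figure D5:**
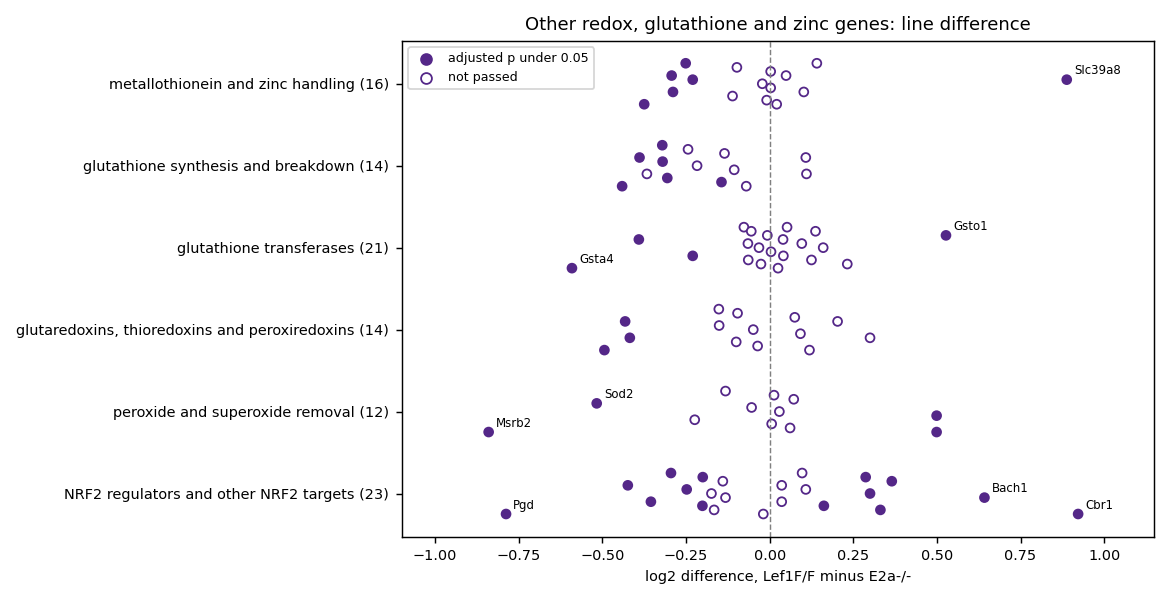
Log2 difference of the Lef1F/F minus the E2a-/- line (horizontal axis) for the measured genes of 6 lists of zinc, glutathione and redox genes, with the number measured in parentheses and 1 point per gene, filled where limma adjusted p was under 0.05. The points are spread vertically only to separate them, and the glutathione synthesis list has 6 filled points to the left of 0 and 0 to the right.

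The genes whose levels over the 8 arrays were most like those of the 3 members that chose the set were taken from 2799 named genes with a log2 SD of at least 0.2, at the brightest probe set of each. The arrays share lines and vectors, so these correlations describe a similar pattern over the groups and not separate observations. The order of the vectors within the E2a-/- line, where differences were small, was not always shared. For Mt2 they were Fbxl5, the subunit of a ubiquitin ligase that senses iron (r = 0.9985), Dzip1 (r = 0.9965) and Stra6l (r = 0.9963). Fbxl5 averaged 762 units in Lef1F/F MigR1-Cre and 615 units in Lef1F/F MigR1 arrays, with 372 and 369 units after MigR1-Cre and MigR1 in the E2a-/- line. For Gstm2 they were Cebpb, a transcription factor of the C/EBP family (r = 0.9977), Ripor2 (r = 0.997) and Cntnap2 (r = 0.9954). For Glrx they were Id3, an inhibitor of E proteins (r = 0.9987), Ctsb, the lysosomal protease cathepsin B (r = 0.9982), and 9530077C05Rik (r = 0.998). Ctsb averaged 1586 units in Lef1F/F MigR1-Cre and 1982 units in Lef1F/F MigR1 arrays, with 1117 and 1105 units after MigR1-Cre and MigR1 in the E2a-/- line.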

How the data were processed

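RNA from GFP+ sorted cells was extracted with Trizol, labelled with an Affymetrix 3' kit and hybridised to Affymetrix whole-genome mouse arrays. The authors normalised the scans with RMA (RMAExpress, version not given in the sources used here), and the deposited values are RMA intensities on a linear scale. RMA makes the distributions of the arrays alike, so a change in total RNA cannot be seen, and it compresses differences between low intensities. The number of arrays limits the precision.

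Each array's group was read from its title, and the source names give the same groups. A vector field of the labels disagrees for 2 groups, E2a-/- MigR1-Cre and Lef1F/F MigR1, and was not used. Lef1 levels went with the titles in the Lef1F/F line. No level checked here shows which arrays of the E2a-/- line received Cre, so its vector groups rest on titles and source names. Arrays were numbered in the order of the records. Symbols came from the platform annotation, and all 10 members matched the annotation of GRCm38.p6 by gene identifier. The design had assumed log2 values, so log2 was taken first. Values of all 8 arrays were fitted with limma 3.58.1 in R 4.3.3 (lmFit, eBayes), with Benjamini-Hochberg adjustment over 45037 probe sets, two-sided and with a threshold of 0.05. The fit was tested on simulated data. The members, lists and tests were chosen with earlier results of these data known. The text names all members, up to 4 genes of each list past the threshold or else the 2 with the smallest p, and 3 genes most alike in pattern to each of Mt2, Gstm2 and Glrx.

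Results were recomputed with trended and robust moderation, after a filter at the 40th percentile, with only the arrays compared, after repeated quantile normalisation, with an offset of 16 units, with array pairs of the Lef1F/F line as a block (from whole-array correlations, not the labels), on MigR1 arrays alone, with the mean of a gene's probe sets for the lists, and without each array in turn.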

Additional observations from a re-analysis of the deposited data

Results flagged for a closer look

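Probe sets were picked out where the arrays of the 2 vectors did not overlap in either line and the direction of the vectors was opposite in the lines. The difference between the lines was not tested. This was so for 6 of 119 probe sets of the members and lists (5.04%), beside 4.32% of all probe sets. Gstm1 at 1 probe set had 177 and 204 units in Lef1F/F MigR1-Cre arrays and 222 and 283 units in Lef1F/F MigR1 arrays, against 214 and 204 units after MigR1-Cre and 185 and 199 units after MigR1 in the E2a-/- line. Its Cre effect in the Lef1F/F line minus that in the E2a-/- line was -0.52 on the log2 scale. The same quantity was -0.47 for Akr1b8, -0.16 for Nfe2l1, 0.24 for Mafk, 0.18 for Osgin1 and 0.10 for Glrx2.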

How the results depend on the processing

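Of the members, 9 of 19 probe sets passed between the lines, and 9 to 11 did under every alternative listed (9 to 10 on leaving out 1 array, 9 of 17 after the filter). Of all probe sets 20.5% passed, with 10.7% on MigR1 arrays alone and 32.6% after the filter. The probe sets of Mt2, Gstm2 and Glrx, which chose the set, passed each time, so the steady count is not read as support. The 11 came with a block for array pairs of the Lef1F/F line, where the brightest Gstm1 probe set (adjusted p = 0.041) and the dimmer Gclm probe set were added and 30.7% of all probe sets passed. The brightest Gstm1 probe set also passed without Lef1F/F MigR1-Cre array 1 (adjusted p = 0.0339). In the E2a-/- line 0 members passed under every alternative, as did 0 list genes in the Lef1F/F line after Cre, the block included. The count of member probe sets without overlap between vectors in the Lef1F/F line, 10, was 9 after repeated quantile normalisation and 10 to 17 on leaving out 1 array, highest without Lef1F/F MigR1 array 1 and 16 without Lef1F/F MigR1-Cre array 2, where 1 array faces 2. On leaving out arrays and under the other alternatives the Lef1F/F difference of Mt2 ran from 0.76 to 0.81, that of Gstm2 from -1.18 to -0.95, and that of Glrx from -0.47 to -0.42 at the brighter and from -0.72 to -0.08 at the dimmer probe set. Low intensity limits what can be said of Mt1, of Slc7a11 in the Lef1F/F line and of Gstm2 in the E2a-/- line.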
